A study of Mus musculus with 18 samples.

Results

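The chemokines and lymphotoxins that build lymphoid follicles were followed through every library of a mouse study of RNF138, an E3 ubiquitin ligase. The set held 7 genes, chosen by symbol from the 36757 genes of the count table: the chemokines Cxcl13, Ccl19 and Ccl21a, the chemokine receptors Cxcr5 and Ccr7, and the lymphotoxins Lta and Ltb. All 7 were in the table, and they were read together with the genes of the cells that fill a follicle, to ask whether follicles were in the tissue taken. RNA was sequenced from colorectal tissue of chronic colitis, from colorectal tissue of colitis-associated cancer (CAC) and from organoids grown from CAC tumors, with 3 libraries labelled wild type (RNF138 fl/fl) and 3 labelled RNF138-/- (KO) in each of the 3 models, 18 in all.

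Every mouse was C57BL/6 and 6 to 8 weeks old at the start, and both models used 2% dextran sulfate sodium (DSS) drunk for 7 days, then plain water for 14 days, as a repeated cycle. The colitis groups received DSS alone, and the CAC groups had been injected with the carcinogen azoxymethane (AOM) at 10 mg/kg before their DSS cycles. By the labels for colitis and the study's methods for CAC, mice of both models were killed 4 weeks after the last DSS. For the organoids, tumor-bearing gut pieces of CAC mice were digested and the cells grown in matrigel, a basement membrane gel, so these cultures started from dissociated tumor and not from whole colon wall. The control mice carried floxed RNF138 alleles. The deleter strain behind the -/- allele is not given in the sources used here, and mice of both sexes were used. The labels do not say whether the libraries of a group came from separate animals, so the p-values measure the spread between these libraries only.

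The RNF138 transcript did not separate the genotypes in the labelled direction. Rnf138 was at 16.0 to 25.5 CPM (counts scaled to the effective library size by the TMM method) in colitis fl/fl and at 18.1 to 19.5 CPM in the colitis libraries labelled KO. Rnf138 in CAC was at 21.0 to 28.0 CPM in fl/fl and at 39.6 to 45.3 CPM in the libraries labelled KO, with a log2 difference of 0.72 (SE 0.14, adjusted p = 0.0426). In organoids it was at 37.4 to 55.2 CPM in fl/fl and 42.6 to 49.9 CPM in the libraries labelled KO. A count over the whole gene cannot show whether a deleted exon was missing from these reads, so KO below stands for "labelled RNF138-/-", and each direction rests on that label. Total counts ran from 11514716 to 24390082 per library, so 1 count was worth 0.0405 to 0.0925 CPM. A floor of 3 counts, which is what a count of 0 still allows, was 0.121 to 0.277 CPM, and intervals of this kind cover counting error only.

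As background, B cells enter a follicle by following CXCL13, made by follicular stromal cells, through their receptor CXCR5. T cells and mature dendritic cells carry CCR7 and follow CCL19 and CCL21, which come from the stroma of the T cell zone, from lymphatic vessels and from high endothelial venules. Lymphotoxin alpha and beta form a membrane heterotrimer on B cells, T cells and lymphoid tissue inducer cells. It binds the lymphotoxin beta receptor on stroma and, through the noncanonical NF-κB arm with RelB and p52, keeps those chemokine genes on. The colon holds such structures as isolated lymphoid follicles and colonic patches, which lie at some points of the wall and not at others.

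On the mm10 build (GRCm38, GENCODE M21), Cxcl13 (ENSMUSG00000023078.6) lies at chr5:95956951-95961068 on the plus strand. Ccl19 (ENSMUSG00000071005.7, chr4:42754525-42756577) and Ccl21a (ENSMUSG00000094686.1, chr4:42772860-42773993) lie side by side on the minus strand of chromosome 4, inside an intron of the plus-strand gene 4930578G10Rik, with which they share 0 exonic bases. Cxcr5 (ENSMUSG00000047880.15) is at chr9:44511787-44561877 on the minus strand, and 110 of its exonic bases overlap Bcl9l on the other strand. Ccr7 (ENSMUSG00000037944.8) is at chr11:99144196-99155077 on the minus strand. Lta (ENSMUSG00000024402.5, chr17:35203165-35205351, minus strand) and Ltb (ENSMUSG00000024399.5, chr17:35194439-35196320, plus strand) are neighbours on chromosome 17. Of the 50-base windows of their transcripts, 71.6% for Ccl21a and 52% for Ccl19 occur again in another gene (Ccl21b and 3 predicted genes for Ccl21a, Gm2564 and Ccl19 pseudogenes among others for Ccl19). How reads of these copies were counted is not given, so the levels of both genes are uncertain. The share was 1.86% for Cxcr5 and 0% for Cxcl13, Ccr7, Lta and Ltb.

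RefSeq promoter sequences of GRCm38.p6, from 250 bases before the start to 50 bases after it, were held for 5 of the 7 genes, all but Ccr7 and Cxcr5. The start is that of RefSeq and can differ from the GENCODE start given above. The bases shown for Ltb end at chr17:35194506, past its GENCODE start at 35194439. The 200 bases before the start are shown for Cxcl13, Ccl21a and Ltb, the chemokine of the B cell zone, the chemokine of the T cell zone and the lymphotoxin with most counts, since these chemokine genes are textbook targets of the noncanonical NF-κB arm. Capitals mark matches, on either strand, to TATAAA, to GGAGATTT (the core of the κB element known from the Cxcl13 promoter) or to the NF-κB decamer consensus.
Cxcl13, chr5:95956739-95956938, plus strand: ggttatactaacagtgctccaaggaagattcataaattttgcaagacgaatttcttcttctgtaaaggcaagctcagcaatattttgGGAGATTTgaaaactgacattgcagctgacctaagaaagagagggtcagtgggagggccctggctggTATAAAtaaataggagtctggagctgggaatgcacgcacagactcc
Ccl21a, chr4:42773992-42774191, minus strand: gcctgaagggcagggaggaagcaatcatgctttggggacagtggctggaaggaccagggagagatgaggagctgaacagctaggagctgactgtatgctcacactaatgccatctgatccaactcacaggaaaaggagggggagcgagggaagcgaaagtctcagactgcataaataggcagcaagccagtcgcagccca
Ltb, chr17:35194307-35194506, plus strand: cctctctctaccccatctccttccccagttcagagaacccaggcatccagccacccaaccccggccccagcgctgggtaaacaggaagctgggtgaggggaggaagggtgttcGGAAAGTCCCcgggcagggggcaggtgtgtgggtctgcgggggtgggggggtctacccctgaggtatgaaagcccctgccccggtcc
The Cxcl13 window held both TATAAA and GGAGATTT, the Ltb window held the NF-κB decamer and the Ccl21a window held none of the 3. Lta had TATAAA and Ccl19 had no match. Over 32851 promoters of the same length the share with a match was 13.6% for TATAAA, 1.06% for GGAGATTT and 4.51% for the decamer, and none of the searched motifs overlapped another in these windows. A match is a description of letters and was not tested as a binding site.

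**Figure D1:**
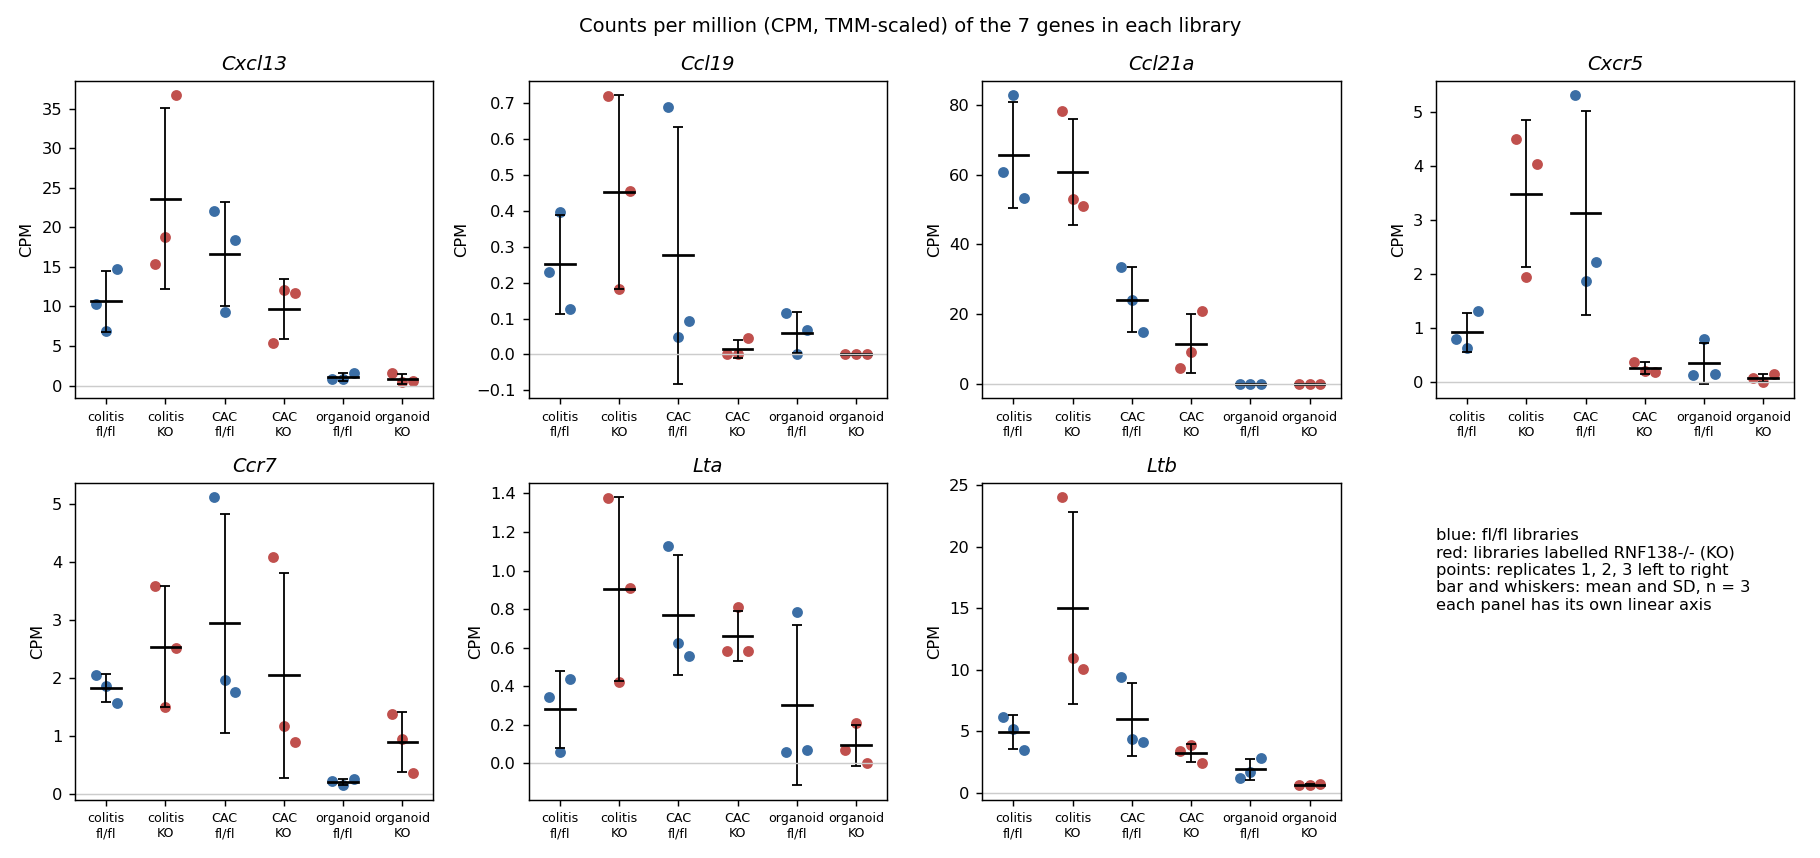
CPM (TMM-scaled, linear axis, 1 panel per gene) of the 7 genes in 18 libraries, with replicates as points and the mean and SD (n = 3) as bar and whiskers, fl/fl in blue and KO in red. Cxcr5 and Ltb were higher in every colitis KO library than in any colitis fl/fl library and lower in every CAC KO library than in any CAC fl/fl library, and Ccl21a was at 0 in all 6 organoid libraries.

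Cxcl13, the B cell attractant, was measured in all 18 libraries. In colitis it was at 10.3, 6.93 and 14.7 CPM in fl/fl replicates 1 to 3 and at 15.3, 18.8 and 36.7 CPM in KO. The CAC libraries had 22.1, 9.31 and 18.4 CPM in fl/fl and 5.37, 12.02 and 11.8 CPM in KO. The colitis KO libraries all stood above the colitis fl/fl libraries, as they did for 8.01% of the 22172 genes with at least 10 counts there, whereas the CAC groups overlapped. In organoids Cxcl13 was between 0.475 and 1.60 CPM, at 7 to 24 counts, and the genotypes overlapped. The order of the group means was colitis KO (23.6 ± 11.5 CPM, SD, n = 3), CAC fl/fl (16.6 ± 6.59), colitis fl/fl (10.6 ± 3.89), CAC KO (9.71 ± 3.77), organoid fl/fl (1.06 ± 0.469) and organoid KO (0.843 ± 0.598). The ranges of neighbours in that order overlapped, except at the step from CAC KO to organoid fl/fl.

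Ccl21a, the chemokine of lymphatic vessels and T cell zones, had the most counts of the set in colitis. It was at 60.9, 82.9 and 53.3 CPM in colitis fl/fl and at 78.4, 53.2 and 51.1 CPM in colitis KO, and these groups overlapped. CAC tissue had 33.4, 24.0 and 14.9 CPM in fl/fl and 4.41, 9.145 and 21.0 CPM in KO. KO replicate 3 lay inside the fl/fl range and KO replicates 1 and 2 below it. The count was 0 in each of the 6 organoid libraries. Against the floor of 3 counts per library, the mean level of CAC tissue was at least 119.2-fold higher than that of organoids in fl/fl and at least 58.51-fold higher in KO. Per kilobase of exon, colitis fl/fl tissue had 75.5 CPM of Ccl21a, 9.25 of Cxcl13, 3.28 of Ltb, 0.926 of Ccr7, 0.289 of Ccl19, 0.274 of Cxcr5 and 0.202 of Lta as group means, so the chemokines Ccl21a and Cxcl13 stood at the head of the set and Ccl19, Cxcr5 and Lta at its end.

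Ccl19, the other CCR7 ligand, was near the limit of detection. Its counts were 4, 7 and 2 in colitis fl/fl, 12, 3 and 9 in colitis KO, 11, 1 and 1 in CAC fl/fl and 0, 0 and 1 in CAC KO. Organoids had 2, 0 and 1 counts in fl/fl and 0 in all KO libraries. The genotype fits of all libraries of a model did not keep Ccl19, and a genotype difference was not detectable at this depth. It was called lower in CAC KO than in colitis KO without a filter and in the filtered fits without 1 of colitis KO replicates 2 and 3 or of the 3 CAC KO replicates, all from these few counts. CAC fl/fl replicate 1, which held 11 of the 13 Ccl19 counts of its group, was also the CAC library with the highest Cxcl13, Ccl21a, Cxcr5, Ccr7, Lta and Ltb.

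Cxcr5, the CXCL13 receptor of mature B cells and follicular helper T cells, separated the genotypes in both tissue models. In colitis it was at 0.798, 0.625 and 1.32 CPM in fl/fl and at 4.49, 1.935 and 4.04 CPM in KO. In CAC it was at 5.31, 1.87 and 2.22 CPM in fl/fl and at 0.372, 0.202 and 0.179 CPM in KO, which are 7, 5 and 4 counts. The genotypes did not overlap in colitis or in CAC and stood in opposite order. Among all genes with at least 10 counts, 8.01% were higher in every colitis KO library and 19.6% lower in every CAC KO library than in any fl/fl library. Organoids had 0 to 2 counts in 5 libraries and 10 counts in fl/fl replicate 2. The order of the means was colitis KO (3.49 ± 1.37 CPM, SD, n = 3), CAC fl/fl (3.13 ± 1.89), colitis fl/fl (0.913 ± 0.361), organoid fl/fl (0.344 ± 0.381), CAC KO (0.251 ± 0.105) and organoid KO (0.0728 ± 0.0744). The ranges of colitis KO and CAC fl/fl overlapped, as did those of colitis fl/fl with organoid fl/fl and of organoid fl/fl with CAC KO, whereas CAC fl/fl stood clear of colitis fl/fl and CAC KO clear of organoid KO.

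Ccr7, the receptor that brings T cells and dendritic cells to CCL19 and CCL21, did not separate the genotypes in tissue. It was at 2.05, 1.87 and 1.57 CPM in colitis fl/fl and at 3.595, 1.51 and 2.52 CPM in colitis KO. In CAC its level was 5.12, 1.97 and 1.76 CPM in fl/fl and 4.09, 1.17 and 0.897 CPM in KO. In both CAC groups replicate 1 was the high library, and the genotypes overlapped in colitis and in CAC. In organoids it was at 0.229, 0.157 and 0.267 CPM in fl/fl and at 1.39, 0.950 and 0.372 CPM in KO, without overlap, from 2 to 4 and 5 to 20 counts. In organoids 23.2% of all genes with at least 10 counts were higher in every KO library. The filter on low counts removed Ccr7 from the organoid fit.

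Lta was the rarer lymphotoxin subunit, at 0 to 23 counts. It was at 0.342, 0.0568 and 0.439 CPM in colitis fl/fl and at 1.38, 0.423 and 0.908 CPM in colitis KO. Its CAC levels were 1.125, 0.624 and 0.555 CPM in fl/fl and 0.584, 0.809 and 0.583 CPM in KO. Both pairs of groups overlapped, and Lta was too low in colitis and in organoids to enter those fits. The organoid levels were 0.0572, 0.784 and 0.0669 CPM in fl/fl and 0.0697, 0.211 and 0 CPM in KO, with fl/fl replicate 2 again the high library as for Cxcr5.

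Ltb, the subunit that anchors the lymphotoxin trimer to the membrane, was at 6.21, 5.17 and 3.51 CPM in colitis fl/fl and at 24.0, 11 and 10.1 CPM in colitis KO. In CAC it was at 9.44, 4.37 and 4.16 CPM in fl/fl and at 3.40, 3.925 and 2.42 CPM in KO. In organoids it was at 1.202, 1.72 and 2.875 CPM in fl/fl and at 0.627, 0.686 and 0.744 CPM in KO. The genotypes did not overlap in any of the 3 models, with KO above fl/fl in colitis and below it in CAC and organoids, as for 8.01%, 19.6% and 22.3% of all genes with at least 10 counts in each model taken alone. The order of the means was colitis KO (15.0 ± 7.80 CPM, SD, n = 3), CAC fl/fl (5.99 ± 2.99), colitis fl/fl (4.97 ± 1.36), CAC KO (3.25 ± 0.763), organoid fl/fl (1.93 ± 0.856) and organoid KO (0.685 ± 0.0583). Colitis KO stood clear of CAC fl/fl and organoid KO clear of organoid fl/fl, and the ranges of the other neighbours overlapped.

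In colitis the genotypes were compared for 5 of the 7 genes, those that passed the filter on low counts. A gene was called where edgeR's quasi-likelihood test, adjusted over all genes by Benjamini-Hochberg, gave p under 0.05 together with a change of at least 2-fold, and 0 of the 5 were called. In this model 0.018% of all 16623 genes tested were called higher and 0.0722% lower. The log2 difference, KO over fl/fl, was 1.96 for Cxcr5 (SE 0.46, unadjusted p = 0.00254, adjusted p = 0.1965), 1.61 for Ltb (SE 0.39, unadjusted p = 0.00329, adjusted p = 0.208) and 1.19 for Cxcl13 (SE 0.41, unadjusted p = 0.0187, adjusted p = 0.360). These 3 passed an unadjusted p of 0.05. DESeq2 called Cxcr5 (adjusted p = 0.00947) and Ltb (adjusted p = 0.00635), as did edgeR without a filter on low counts (adjusted p = 0.0269 and 0.0144), so the call depended on the tool and on the filter. Ccr7 had a log2 difference of 0.50 (adjusted p = 0.726) and Ccl21a of -0.09 (adjusted p = 0.939).

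In CAC, 6 of the 7 genes were tested and 1 was called. Cxcr5 fell by 3.67 on the log2 scale in KO (SE 0.56, adjusted p = 0.0290), lower in 3 of 3 libraries, against a background of 4.83% of 17752 genes called lower and 0.546% called higher. The other 5 had negative log2 differences that did not pass the test: -1.10 for Ccl21a (adjusted p = 0.215), -0.92 for Ltb (adjusted p = 0.153), -0.82 for Cxcl13 (adjusted p = 0.221), -0.57 for Ccr7 (adjusted p = 0.585) and -0.26 for Lta (adjusted p = 0.648). The median of the 6 was -0.87, against 0.0056 over all genes tested. With a Y-linked covariate the Cxcr5 difference was -3.78 and not called (adjusted p = 0.115), while the calls over all genes went from 97 higher and 857 lower to 0 and 25. The call was also lost with any 1 of the 3 KO libraries left out (adjusted p = 0.0937, 0.138 and 0.0879 without replicates 1, 2 and 3, log2 differences between -4.02 and -3.46), and it remained without any 1 fl/fl library (adjusted p = 0.0484, 0.0487 and 0.0211). Without KO replicate 1 or 2, 0 genes of any kind were called lower by edgeR, while 2215 and 1913 were lower by at least 2-fold at an unadjusted p under 0.05.

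The difference between the genotype effects in CAC and in colitis was tested in 1 fit of all 18 libraries. It rests on the same tissue libraries as the comparisons above, so it is not independent of the opposite directions seen there. Cxcr5 differed by -5.58 (SE 0.91, adjusted p = 0.00185) and Ltb by -2.49 (SE 0.57, adjusted p = 0.0113), CAC minus colitis on the log2 scale. In that contrast 9.37% of 19390 genes were called lower and 2.57% higher. Cxcl13 came to -1.95 (SE 0.66, adjusted p = 0.0595; 0.0235 by DESeq2 and 0.0248 without a filter), Lta to -1.92 (SE 1.08, adjusted p = 0.247), Ccr7 to -1.02 (SE 0.80, adjusted p = 0.417) and Ccl21a to -0.96 (SE 0.64, adjusted p = 0.341). Cxcr5 and Ltb kept their calls under every alternative run for this contrast, with adjusted p up to 0.00843 and 0.0314. The Y-linked covariate, with which the Cxcr5 call in CAC was lost, was not run for this contrast.

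**Figure D2:**
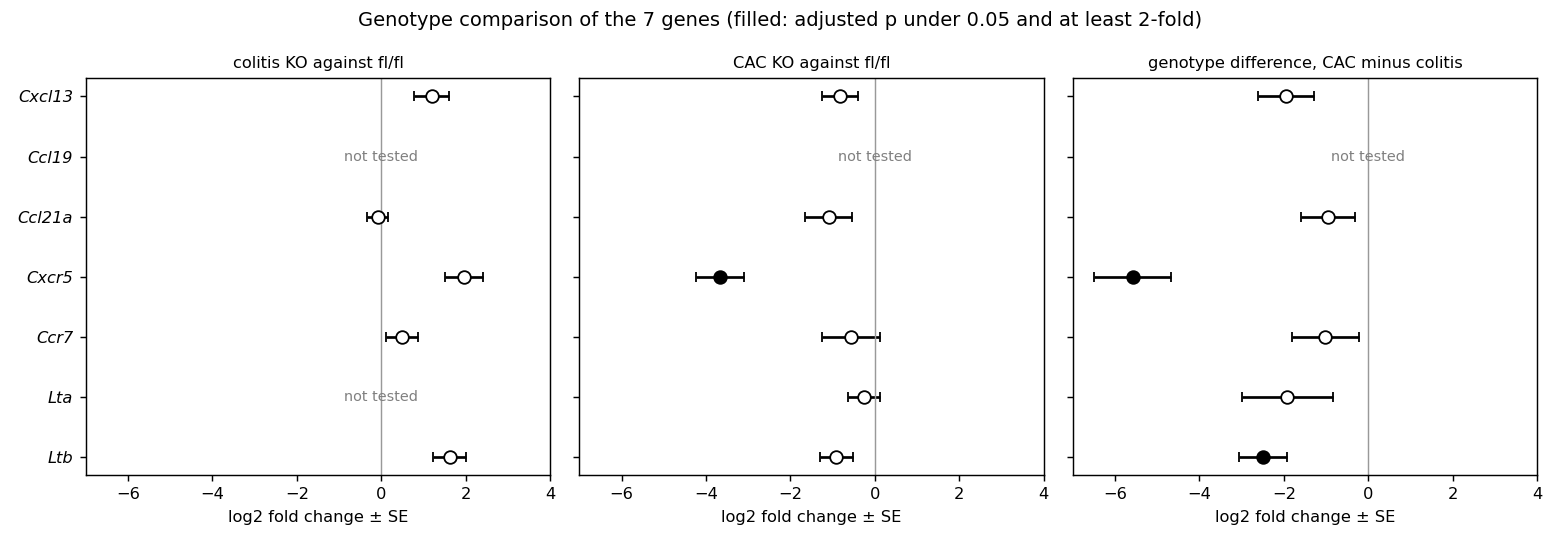
Log2 fold change with its SE (edgeR) of the 7 genes for KO against fl/fl in colitis, KO against fl/fl in CAC, and the difference of these effects (CAC minus colitis), with filled points for calls at an adjusted p under 0.05 and at least 2-fold. Cxcr5 was at 1.96 in colitis and -3.67 in CAC, and the difference was called for Cxcr5 and Ltb.

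Between the models, fl/fl CAC tissue had more Cxcr5 than fl/fl colitis tissue (log2 difference 1.79, SE 0.61, adjusted p = 0.0486) and less Ccl21a (-1.43, SE 0.46, adjusted p = 0.0444), both in 3 of 3 libraries. The background was 9.78% of genes called higher and 3.81% lower. Both p-values were close to the threshold, and leaving out single libraries moved them: the Cxcr5 call was lost without CAC fl/fl replicate 1 (log2 difference 1.15, adjusted p = 0.262) or without any 1 colitis fl/fl library (adjusted p between 0.0532 and 0.173), and the Ccl21a call without colitis fl/fl replicate 1 or 2 or CAC fl/fl replicate 2 or 3 (adjusted p between 0.0838 and 0.1198). Among the libraries labelled KO, CAC was lower than colitis for Cxcr5 (-3.79, adjusted p = 2.75e-04), Ltb (-2.21, adjusted p = 3.82e-04), Ccl21a (-2.40, adjusted p = 0.00110) and Cxcl13 (-1.29, adjusted p = 0.0286). That is 4 of 6 tested, where 19.6% of all genes were called lower and 17.5% higher. The Cxcl13 call was lost without colitis KO replicate 3 (log2 difference -0.86, adjusted p = 0.137) and without CAC KO replicate 1 (-0.997, adjusted p = 0.1096). With the replicate number as a block neither fl/fl call remained (adjusted p = 0.0655 for Cxcr5 and 0.0685 for Ccl21a). The Cxcr5 call there was also lost with RLE factors (adjusted p = 0.05001), and the Ccl21a call without scaling factors (0.0660) and in a fit of the 12 tissue libraries (0.0577). These comparisons share their tissue libraries with the genotype comparisons above.

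Organoids were set against CAC tissue. All 6 genes tested were lower in organoids, with log2 differences of -3.735 for Cxcl13, -2.51 for Cxcr5, -2.41 for Ccr7, -1.999 for Lta and -1.92 for Ltb (adjusted p between 4.34e-07 and 0.00920), and for Ccl21a the bounds given above. In this contrast 28.2% of all genes were called lower and 17.2% higher, and the median of all genes was itself -0.18, so the differences are to be read against that shift. Cd3e, a defining T cell marker, was at 0 counts in all 6 organoid libraries. Of the 15 T cell genes 10 were called lower in organoids and 0 higher by edgeR, with 3 positive at an unadjusted p under 0.05 and 0 called higher by DESeq2. The sum of that list was nonetheless 174.0 to 228.2 CPM in organoid fl/fl and 75.0 to 95.1 CPM in organoid KO, against 62.8 to 146.1 CPM in CAC tissue, so the sum does not follow Cd3e. Between the organoid genotypes 2 of the 7 genes were tested: Ltb fell by 1.53 on the log2 scale in KO (SE 0.41, adjusted p = 0.0229), lower in 3 of 3 libraries from 9 to 13 counts against 21 to 43, and Cxcl13 came to -0.40 (SE 0.55, adjusted p = 0.598). The background was 7.04% of 15294 genes called lower and 7.94% higher. The Ltb call was lost without any 1 organoid library other than fl/fl replicate 1 (adjusted p between 0.0511 and 0.0824). The summed CPM of 7 fibroblast genes was 8940 to 23060 in organoid fl/fl and 40120 to 49540 in organoid KO, against 942 to 1816 in CAC tissue. The 4 Y-linked genes differed between the organoid genotypes too (Ddx3y, adjusted p = 3.03e-05). The part of either in the Ltb difference was not tested.

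The cells that fill a follicle were read from their own genes. In bulk tissue, fewer cells of a type and less RNA per cell cannot be told apart. Ms4a1, which encodes CD20, was at 1.71, 1.42 and 1.44 CPM in colitis fl/fl, 9.83, 2.66 and 11.7 CPM in colitis KO, 16.3, 3.22 and 7.49 CPM in CAC fl/fl and 1.06, 0.405 and 1.17 CPM in CAC KO. Cr2, the complement receptor of mature B cells and follicular dendritic cells, was at 0.684, 0.568 and 1.32 CPM, then 4.08, 0.544 and 7.72, then 10.5, 2.06 and 5.09, and then 0.850, 0.202 and 0.269 CPM in the same order. Cxcr5 and Ms4a1 had their 3 highest levels in the same libraries, colitis KO replicates 1 and 3 and CAC fl/fl replicate 1, whereas for Cr2 CAC fl/fl replicate 3 (5.09 CPM) stood above colitis KO replicate 1 (4.08 CPM). Within a group the spread was wide: the highest Cr2 level of colitis KO was 14.2 times the lowest.

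Of 18 follicular B cell genes, 17 were in the table and tested. In colitis all 17 had positive differences (median 1.46, against 0.021 over all genes) and 0 were called by edgeR, while 10 were higher at an unadjusted p under 0.05 and DESeq2 called 7 higher. Over all 16623 genes tested DESeq2 called 205 higher. Of these 16623, 509 were higher at an unadjusted p under 0.05 and at least 2-fold, a stricter rule than that for the 10. In CAC all 17 were negative (median -3.52) and 11 were called lower, against 4.83% of all genes tested. Among them Pax5, the B lineage factor, fell by 5.36, Tnfrsf13c, the BAFF receptor, fell by 4.28, and Ighd, the IgD heavy chain of naive B cells, fell by 3.94 on the log2 scale (adjusted p = 0.0300, 0.0193 and 0.0399). Their summed level was 88.7 to 99.9 CPM in colitis fl/fl, 136.0 to 269.9 in colitis KO, 138.2 to 318.8 in CAC fl/fl, 16.1 to 67.9 in CAC KO and 3.72 to 7.35 in organoids. In the contrast between models all 17 were called lower, against 9.37% of all genes tested, and this was the direction in which Cxcr5 and Ltb differed. Relative to 100 CPM of this list, Cxcr5 was at 0.625 to 1.49 CPM in colitis fl/fl, 1.42 to 2.11 in colitis KO, 1.08 to 1.67 in CAC fl/fl and 0.547 to 1.11 in CAC KO, so on this scale the genotypes overlapped in both models. On the same scale Ltb was at 3.96 to 6.34, 5.27 to 8.90, 2.51 to 3.01 and 5.004 to 19.1, and Cxcl13 at 6.93 to 16.6, 5.68 to 19.2, 5.36 to 13.3 and 7.90 to 73.0 CPM, so relative to the list Ltb was higher in every CAC KO library than in any CAC fl/fl library, and Cxcl13 overlapped. Ccr7 and Lta did not overlap in CAC on this scale either, and in colitis Ccr7 and Ccl21a were lower in every KO library than in any fl/fl library. Most genes separate this way once divided by the list: 73.9% of 23367 genes with at least 10 counts were higher in every CAC KO library and 0.668% lower, against 19.7% and 19.6% in CPM, and 54.1% of 22172 were lower in every colitis KO library and 0.564% higher, against 8.17% and 8.01% in CPM, so these separations are not particular to the 4 genes. No test was run on these ratios.

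**Figure D3:**
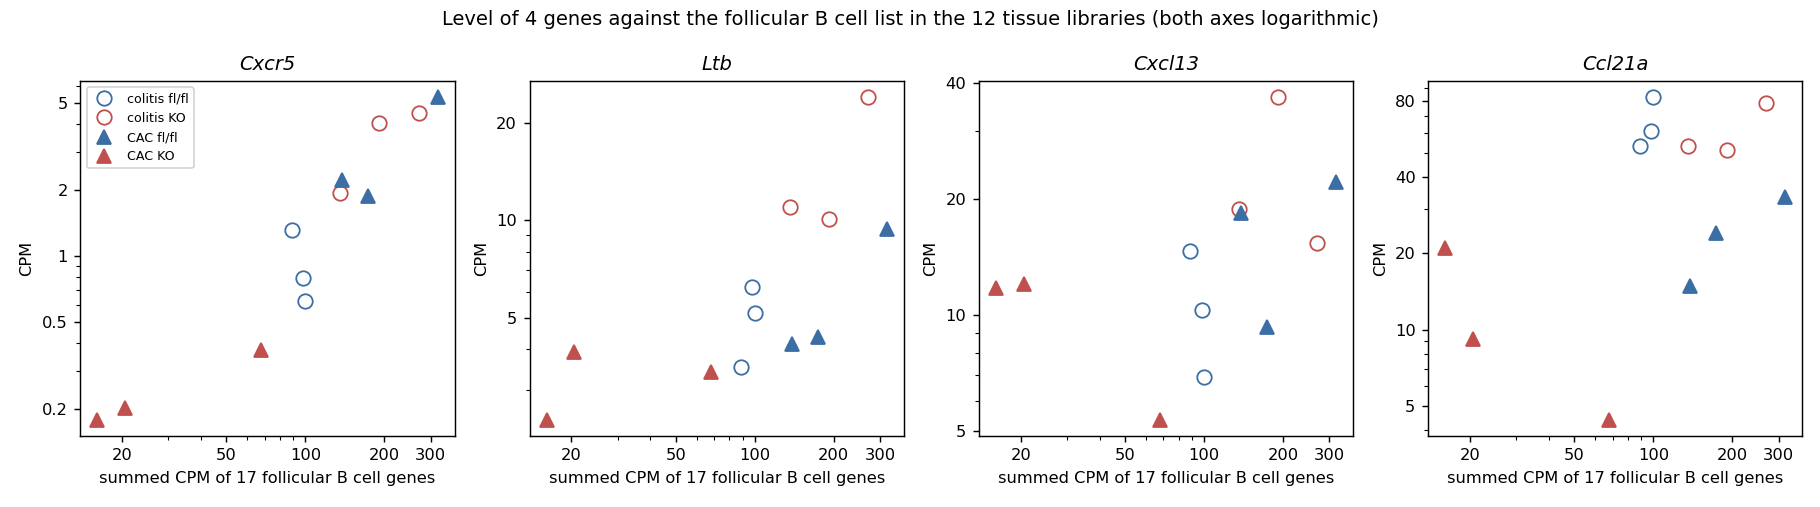
CPM of Cxcr5, Ltb, Cxcl13 and Ccl21a (vertical, logarithmic) against the summed CPM of 17 follicular B cell genes (horizontal, logarithmic) in the 12 tissue libraries, open circles for colitis and triangles for CAC, blue for fl/fl and red for KO. Cxcr5 climbs with the list from 0.179 CPM at 16.1 to 5.31 CPM at 318.8, whereas Ccl21a was at 51.1 to 82.9 CPM in colitis and at 4.41 to 33.4 CPM in CAC.

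Germinal centres and follicular dendritic cells were read from lists of their own. Of 10 germinal centre genes tested in CAC 3 were called lower in KO: Rgs13 fell by 4.18, Mef2b fell by 2.39 and Nuggc fell by 2.17 on the log2 scale. Of the 10, 6 had negative and 4 positive differences, 4.83% of all genes were called lower, and the summed level of the list was 93.7 to 217.4 CPM in KO and 98.8 to 160.3 CPM in fl/fl, so the sums overlapped. Of 10 follicular dendritic cell genes tested 1 was called lower, Cr2, which B cells share and which fell by 3.79. That list had 5 positive and 5 negative differences (median -0.024), and summed to 627.5 to 1165 CPM in CAC KO and 267.5 to 760.3 CPM in CAC fl/fl, which overlapped. DESeq2 called 4 germinal centre genes lower there, and 2 follicular dendritic cell genes lower and 1 higher. In colitis edgeR called 0 of 10 germinal centre genes, with 0 at an unadjusted p under 0.05 and 0 called by DESeq2, and 0 of 11 follicular dendritic cell genes, with 4 higher at an unadjusted p under 0.05 and 1 called higher by DESeq2. Other genes of that list, such as Clu and Sox9, are also made by epithelium, and the list summed to 1294 to 1763 CPM in organoids against 251 to 476.5 CPM in colitis. Madcam1, the mucosal vessel addressin, was at 1.57 to 8.51 CPM across tissue libraries, and Glycam1, a mucin of high endothelial venules, had 37 counts in CAC fl/fl replicate 1 and 0 to 15 in the other 11. Gp2, a receptor of M cells over follicles, was at 0.114 to 0.706 CPM in colitis, 1.21 to 17.95 in CAC tissue, 26.0 to 82.4 in organoid fl/fl and 0.528 to 0.967 CPM in organoid KO, so its highest levels were in cultures where Cd3e was at 0.

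Cd3e, a chain of the T cell receptor complex, was at 0.909 to 1.51 CPM in colitis fl/fl, 1.935 to 3.78 in colitis KO, 1.34 to 2.75 in CAC fl/fl and 0.538 to 2.06 in CAC KO. All 15 T cell genes had positive differences in colitis (median 0.92, 0 called by edgeR, 9 at an unadjusted p under 0.05 and 2 called by DESeq2), and 1 of 15 was called lower in CAC, where 4.83% of all genes were, Cd28, a costimulatory receptor, which fell by 1.85. Of 7 lymphatic endothelial genes 0 were called by edgeR between genotypes in colitis or in CAC, with 0 and 2 at an unadjusted p under 0.05 and 0 and 1 called by DESeq2. Lyve1, a lymphatic hyaluronan receptor, was at 21.3 to 54.6 CPM in colitis and 6.06 to 16.85 CPM in CAC. CAC was lower than colitis for Lyve1 in fl/fl (-1.255, adjusted p = 0.0294) and in KO (-1.91, adjusted p = 7.07e-04). Of the 7 lymphatic genes, CAC against colitis had 1 called higher and 1 lower in fl/fl, against 9.78% and 3.81% of all genes tested, and 1 higher and 4 lower in KO, against 17.5% and 19.6%. The gene called higher was Prox1, the factor of lymphatic identity, at 3.42 to 11.8 CPM in colitis and 21.2 to 519.7 CPM in CAC tissue (log2 differences 5.05 in fl/fl and 6.11 in KO). Prox1 was also at 127.1 to 469.0 CPM in organoids. Mature dendritic cell genes, which go with Ccr7, had 0 of 8 called by edgeR in either model, with 1 in each at an unadjusted p under 0.05 and 0 in colitis and 1 in CAC called by DESeq2. In CAC 1 gene each of the high endothelial venule, type 3 innate lymphoid, fibroblast and M cell lists was lower in KO: Chst4, a sulfotransferase of those venules (of 5 tested), Kit (of 6), Dpt (of 7) and Spib (of 9), a factor that B cells and M cells share. Over all genes 4.83% were called lower there, and each of these lists rests on 1 call. Myeloid genes had 0 of 9 called by edgeR in CAC, with 3 higher at an unadjusted p under 0.05 and 2 called higher by DESeq2. In colitis these 5 lists had 0 genes called by edgeR and 0 by DESeq2. At an unadjusted p under 0.05 there, 1 of 5 venule genes was higher and 2 lower, 2 of 7 innate lymphoid genes were higher and 2 lower, 1 of 7 fibroblast and 2 of 8 M cell genes were higher, and 0 of 7 myeloid genes passed. The summed venule level was at least 173.1 CPM in each colitis fl/fl library and as low as 93.2 CPM in colitis KO, and that of the innate lymphoid list was 253.8 to 314.5 CPM in fl/fl and 190.0 to 233.8 CPM in KO. Both sums were lower in every KO library than in any fl/fl library, whereas Cxcr5, Ltb and Cxcl13 were higher there. Over all genes with at least 10 counts, 8.17% were lower in every colitis KO library. Of the venule genes tested, 3 had positive and 2 negative differences (median 0.36). Of the innate lymphoid genes, 3 were positive and 4 negative (median -0.22), so neither sum stands for each gene of its list. The part of these cell types in the colitis values of the 7 genes was not tested.

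Cell types that have no place in a follicle also differed between libraries. In CAC KO all 6 smooth muscle genes were called lower (median -5.16), with a summed level of 113.2 to 240.0 CPM against 2547 to 8194 CPM in CAC fl/fl, and in the contrast between models all 6 were lower again. Over all genes tested, 4.83% were called lower in CAC KO and 9.37% in that contrast, the background for the calls in this paragraph. In CAC KO plasma cell genes were called lower for 7 of 12 (median -3.27), and summed to 980 to 1478 CPM against 7047 to 10910 in CAC fl/fl. In colitis that sum was 6795 to 9953 CPM in KO and 10010 to 10570 CPM in fl/fl, lower in every KO library, whereas Cxcr5, Ltb and the follicular B cell sum were higher in every KO library. Of all genes with at least 10 counts, 8.17% were lower and 8.01% higher in every colitis KO library. Of the 12 plasma cell genes 0 were called in colitis by edgeR or by DESeq2, with 2 lower at an unadjusted p under 0.05. Adipocyte genes were called lower for 3 of 3 tested and summed to 15.5 to 16.1 CPM against 54.0 to 105.5. In colitis that sum was 23.8 to 36.8 CPM in fl/fl and 32.3, 39.5 and 162.4 CPM in KO replicates 1 to 3, with 0 of 2 genes called by edgeR, 1 higher at an unadjusted p under 0.05 and 1 called higher by DESeq2. In the contrast between models 5 of 5 adipocyte genes were called lower. Colitis KO replicate 3 was also the library with the most Cxcl13, and without it the colitis difference of Cxcl13 was 0.68 instead of 1.19 on the log2 scale; the part of adipose tissue in it was not tested. Intestinal epithelial genes were called lower for 3 of 12 and summed to 6631 to 7374 CPM against 13690 to 35040, whereas Epcam, the pan-epithelial marker, was at 1411 to 1653 CPM in CAC KO and 1434 to 2128 CPM in CAC fl/fl. Of those 12 genes 11 had negative differences (median -2.01). At an unadjusted p under 0.05 there were 8 lower and 1 higher, and DESeq2 called 6 lower and 1 higher. Over all 17752 genes DESeq2 called 1905 lower and 558 higher in CAC. In colitis 0 of 6 smooth muscle genes were called by edgeR or DESeq2 and 0 passed an unadjusted p of 0.05, with 6585 to 7938 CPM in fl/fl and 4886 to 14560 CPM in KO. The depth of the wall and the site along the colon at which each piece was cut are not given, and their part in the Cxcr5 difference was not tested.

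**Figure D4:**
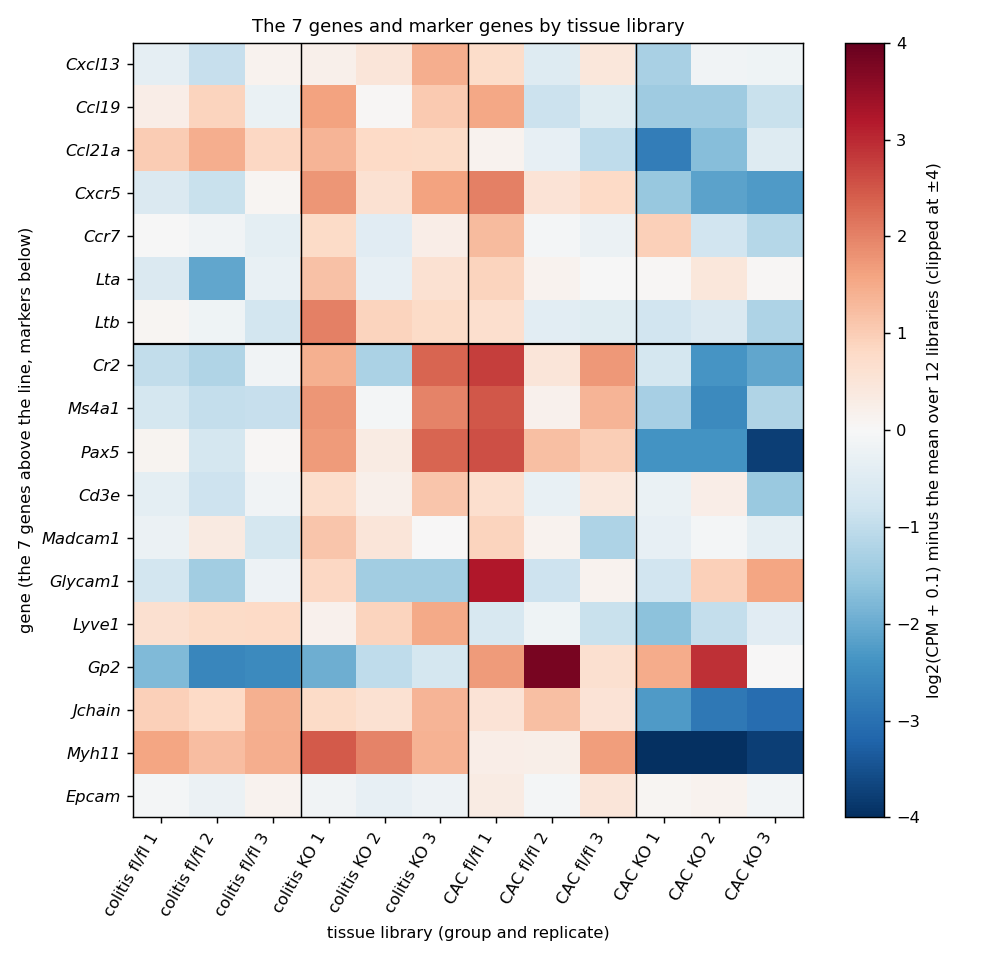
Log2(CPM + 0.1) of the 7 genes (above the line) and of marker genes (below) in the 12 tissue libraries, each gene minus its mean over the libraries, red above and blue below, clipped at ±4. Cxcr5, Ms4a1 and Pax5 have their 3 highest libraries in common (CAC fl/fl replicate 1 and colitis KO replicates 1 and 3), and Myh11 and Jchain are low in all 3 CAC KO libraries.

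The genes whose log2 CPM was most like that of each member over the 12 tissue libraries, out of 16008 genes with a mean of at least 1 CPM, are given as a description. All points share the same 4 groups, so differences between groups enter each r. For Cxcr5 they were Bank1 (r = 0.987), Pax5 (r = 0.968) and Prkcb (r = 0.965), all B cell signalling or lineage genes. After group means were subtracted, Ap1m2 (r = 0.952) came first, followed by Bank1 (r = 0.939) and Pmaip1 (r = 0.927), and Pax5 and Prkcb were no longer among the nearest 3. For Ltb they were Coro1a (r = 0.982), Carmil2 (r = 0.948) and Ptprcap (r = 0.929), genes of leukocytes at large, and within groups Coro1a still led (r = 0.954), followed by Arl2bp (r = 0.923) and Glmp (r = 0.914) in place of the other two. Ccl21a was nearest to C1qtnf7 (r = 0.962), Zfp536 (r = 0.959) and Vwa5b2 (r = 0.956). Cxcl13 was nearest to Cd160 (r = 0.900), Slc46a3 (r = 0.872) and Adhfe1 (r = 0.871), and Ccr7 to St8sia1 (r = 0.841), Cd37 (r = 0.812) and Ly6a (r = 0.794). Lta was nearest to Cyp4f18 (r = 0.892), Tdrp (r = 0.867) and Rpl3 (r = 0.832), and Ccl19 to Adgrg5 (r = 0.918), Nnmt (r = 0.908) and Oxld1 (r = 0.903), from 0 to 12 counts of Ccl19. For Ccl21a, Cxcl13, Ccr7, Lta and Ccl19 none of these 3 names stayed among the nearest 3 after group means were subtracted.
Among the members, Cxcr5 with its ligand Cxcl13 gave r = 0.680 over the 12 libraries and r = 0.315 after group means were subtracted, and Ccr7 with its ligand Ccl21a gave r = 0.0115 and r = -0.263. Cxcr5 with Ms4a1 gave r = 0.932 and r = 0.764. Ccl21a with Lyve1 gave r = 0.864 as measured and r = 0.4105 after the subtraction.

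The wider pathway was described from fixed lists. Of 14 lymphotoxin and TNF family ligands and receptors tested, 0 were called in colitis and 3 were lower in CAC KO: Tnfrsf13c and Tnfrsf13b, receptors for BAFF and APRIL on B lineage cells, and Tnfrsf11a, which encodes RANK (log2 differences -4.28, -2.39 and -1.18). Over all genes tested, colitis had 0.018% called higher and 0.0722% lower, CAC 0.546% higher and 4.83% lower, and organoids 7.94% higher and 7.04% lower. In organoids 2 of 12 were higher in KO, Tnfrsf1b and Tnfrsf14, which encodes HVEM (1.34 and 1.22). Ltbr, the receptor of the Lta and Ltb trimer, was not called in any genotype comparison (0.13 in colitis, -0.25 in CAC and 0.04 in organoids). Of 17 canonical and noncanonical NF-κB genes, the list that includes Rnf138 itself, 0 were called in colitis and 0 in CAC. In organoids 1 of 17 was called higher, a share near the 7.94% of all genes. It was Map3k14, which encodes the kinase NIK (log2 difference 1.05, adjusted p = 0.0159). At an unadjusted p under 0.05, 7 of the 17 were positive and 0 negative in organoids, and DESeq2 called 2 higher. Over all 15294 genes tested there DESeq2 called 1290 higher. Of these 15294, 1306 were higher at an unadjusted p under 0.05 and at least 2-fold, a stricter rule than that for the 7. Of 15 further homeostatic chemokine and receptor genes, 0 were called in colitis and 3 were lower in CAC KO: Ccr10 and its ligand Ccl28, a pair that guides IgA plasma cells (-2.97 and -2.48), and Ackr4, a scavenger of CCL19 and CCL21 (-2.84). In organoids Ackr4 (2.09) and Cyp7b1 (1.06) were higher and Ccl25 (-1.07) lower in KO. Of the genes for lymphoid organ formation and adhesion, 0 of 12 in colitis and 0 of 13 in CAC were called, and in organoids Itga4, an integrin chain for homing, was higher (1.71) and Id2, a factor of lymphoid tissue inducer cells, lower (-1.45) in KO. These counts of 0 are by edgeR. DESeq2 called genes of these 4 lists in colitis (2 higher, both of the lymphotoxin and TNF list), and in the organ formation list of CAC (1 higher, 1 lower). At an unadjusted p under 0.05, colitis had 5 of 14 lymphotoxin and TNF genes, 1 of 17 NF-κB genes, 4 of 15 chemokine genes and 2 of 12 organ formation genes, and CAC had 5 of 17 NF-κB genes, all positive, and 4 of 13 organ formation genes.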

How the data were processed

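RNA sequencing of 18 libraries from mice was used, 3 per genotype in each of 3 models, grouped by the sample labels. The authors deposited whole-number read counts per gene without normalization, and total counts were 11514716 to 24390082. The submitters' processing notes name mm10, STAR 2.6.1d, HTSeq 0.11.2 and DESeq2 without their roles, the paper's methods name mm10, Cufflinks and a Gencode annotation, and use of strand is not given in the sources used here. Results of the authors' own genotype tests (fold changes with p-values) were also deposited and were not used.

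Counts were normalized by TMM, filtered (filterByExpr) and tested with edgeR 4.0.16 in R 4.3.3 by glmQLFit and glmQLFTest, per model for genotype and in 1 fit of all libraries for the other contrasts, with Benjamini-Hochberg adjustment over all genes tested. Calls needed an adjusted p under 0.05 and a fold of at least 2, the thresholds of the study. CPM are TMM-scaled over all 18 libraries. Of 36757 identifiers 36700 matched GENCODE M21 on the base identifier. Tables were made with Python 3.11.15. The fits were tested on simulated data. Libraries of the same group differed by a chi-square per degree of freedom of at least 7.44, so none was a copy of another of its group.

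The genes and lists were chosen with earlier results of these data known. Named genes are the 7 members, at most 3 called genes per list and comparison with the largest differences, the defining markers with values (some are not reported here), and the 3 genes nearest each member by correlation. Genes named beyond that rule (Ltbr, Rnf138, Ddx3y, Clu, Sox9, Prox1, Myh11 and Jchain) were chosen after their values were seen. Alternatives were RLE factors, no scaling, no filter, DESeq2 1.42.0, the replicate number as a block, a Y-linked covariate, a joint or a tissue-only fit, and leaving out each library.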

Additional observations from a re-analysis of the deposited data

Results flagged for a closer look

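The genotype effect on Cxcr5 differed between CAC and colitis by -5.58 on the log2 scale in the test of the difference itself (edgeR, adjusted p = 0.00185), with KO above fl/fl in 3 of 3 colitis libraries and below it in 3 of 3 CAC libraries. The effect on Ltb differed in the same way by -2.49 (adjusted p = 0.0113). Over all genes 9.37% were called in that direction, and the follicular B cell list was called lower for 17 of 17 and the smooth muscle list for 6 of 6 genes in the same contrast.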

How the results depend on the processing

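The Y-linked covariate and the joint fit were run for the genotype comparisons and the tissue-only fit for the contrasts between models, and single-gene values were recomputed where the main fit had tested the gene, so not for Ccl19, for Lta in colitis, or for genes other than Ltb and Cxcl13 between organoid genotypes. In colitis the number called higher was 0, and it was 2 without a filter and 2 by DESeq2 (Cxcr5 and Ltb each time) and 1 with the Y-linked covariate (Ltb). In CAC the number called lower was 1, and it was 0 with the Y-linked covariate and 0 to 1 with a library left out. In organoids the number higher was 0, and it was 1 without a filter (Ccr7) and 0 to 1 with a library left out (Ccr7, without KO replicate 3), and the number lower was 1, then 0 with the Y-linked covariate and 0 to 1 with a library left out. That covariate separates the organoid genotypes, so the Ltb value of 9.55 it gave there has no meaning. For CAC against colitis in fl/fl, the number higher was 1, and it was 0 with RLE factors and 0 to 1 with a library left out, and the number lower was 1, and it was 0 without scaling factors, 0 in the 12 tissue libraries and 0 to 1 with a library left out. In the contrast of genotype effects the number lower was 2, and up to 4 with a library left out (Ccl19 and Cxcl13 added, without CAC fl/fl replicate 2).

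With the replicate number as a block, Cxcr5 in CAC against colitis fl/fl came to 1.73 (adjusted p = 0.0655) and Ccl21a to -1.43 (adjusted p = 0.0685), so the counts there were 0 and 0, and no other count of called members moved. Correlations of same-numbered libraries lay between -0.228 and 0.506 and 3 of 9 exceeded 0.1. In CAC the KO library most like each fl/fl library bore the same number, at r = 0.027, 0.195 and 0.070 for replicates 1 to 3. In colitis this held for replicate 3 (r = 0.506) and not for replicates 1 and 2, and in organoids for no replicate. These values do not settle whether the numbers pair the samples.

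Leaving out 1 library turned the sign of differences that were not called, with these ranges over the libraries left out: Ccl21a in colitis from -0.2986 to 0.107 (0.0099 without KO replicate 3), Ccr7 in CAC from -1.54 to 0.0709, Lta in CAC from -0.4147 to 0.0996, Cxcl13 in organoids from -1.126 to 0.0166, Ltb in CAC against colitis fl/fl from -0.22 to 0.4673, and Ccr7 in CAC against colitis KO from -1.291 to 0.0315. Without scaling factors Cxcl13 lost its call in CAC against colitis KO (adjusted p = 0.0866), and the median of all genes in that contrast moved from 0.045 to 0.35. That setting also moved the calls over all genes there from 3392 higher and 3804 lower to 4789 and 2932, those between organoid genotypes from 1215 and 1077 to 936 and 1654, those of the genotype difference from 498 and 1817 to 844 and 1453, and those of organoids against CAC tissue from 3334 and 5463 to 2295 and 7102. Over all genes, calls in colitis were 3 higher and 12 lower by edgeR and 205 and 138 by DESeq2, and in CAC 97 and 857 by edgeR, 558 and 1905 by DESeq2 and 0 and 25 with the Y-linked covariate. The cause of these shifts was not tested. Of the single-gene values under all alternatives, 482 kept direction and side of the threshold, 8 passed it, 25 no longer did and 8 turned sign. Ccl19, Lta and Cxcr5 rest on few counts, which limits what these libraries can show.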
